A study of Mus musculus with 12 samples.

Results

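The circles described here are circular RNAs (circRNAs) made from the genes of RNA helicases and splicing regulators. A circRNA of the deposited table was taken as a member when it lay inside a protein-coding gene of the GENCODE M21 annotation, had at least 1 end on an exon boundary of that gene, and the gene carried 1 of 13 names or name stems (Ddx, Dhx, Rbm, Srsf, Srpk, Mbnl, Celf, Elavl, Cpsf, Prpf, Lsm, Hnrnp or Qk). The rule gave 228 of 16445 circRNAs, from 69 host genes. It used names and positions and no measured value. Both ends lay on exon boundaries for 219 of the 228, and 1 end did for the other 9.

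The values came from livers of 12 mice (strain C57BL/8 in the labels). All 12 had the liver toxin carbon tetrachloride (CCl4), which produces fibrosis, by injection of a 10% solution 2 times a week for 8 weeks, with 10 µl for each 10 g that a mouse weighed. The 6 Control mice had CCl4 alone, and the 6 PZH mice had CCl4 and a daily dose of PZH, or Pien Tze Huang, which is used in traditional Chinese medicine, at 25 mg/ml during weeks 2 to 8. No liver free of CCl4 is among the groups compared, each library was taken as 1 mouse, and the labels used here give neither sex nor age. Hepatocyte hosts had the highest sums where the tissue label was checked, and 7 of 8 hepatocyte genes had circles. They summed to 393.6 to 497.7 SRPBM in PZH and 342.1 to 502.0 in Control libraries. Most of this came from Abcc2 and Mlxipl (medians of 218.3 and 173.4), while Alb had a median of 6.03 and Hnf4a was above 0 in 1 library. Circles also came from 5 of 6 macrophage and immune genes (40.6 to 65.7 in PZH and 35.4 to 58.7 in Control). Most of that sum was Adgre1 (median 43.4), while Ptprc and Csf1r were above 0 in 1 library each and Itgam in 2. Of 4 endothelial genes, 3 had circles (24.1 to 30.6 and 20.5 to 43.9). Dock4 made up most of these (median 24.6, against 1.93 for Stab2 and 1.79 for Pecam1). None of 4 cholangiocyte genes had any. SRPBM is the authors' unit, a signal of junction-spanning reads divided by how many reads each library mapped; its exact formula is not given in the sources used here.

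A circRNA forms when the splice donor at the end of an exon is joined to an acceptor that lies upstream of it, at the front of that exon or of a preceding one, a step called back-splicing. Many of the proteins made by these host genes take part in splicing, and a few are known to act on back-splicing itself. Quaking (Qk) binds introns on both sides of an exon and promotes its circularisation, muscleblind (Mbnl) proteins bind their own pre-mRNA near a circle they favour, and Dhx9 unwinds paired repeats in introns and thereby lowers circle output. The circles measured here come from the genes of these factors and say nothing of how much protein was made.

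The back-splice junction is the only stretch of a circle that its linear mRNA lacks. The junctions of the circles on which the results turn are shown so that circles sharing an end can be compared. Each holds the last 15 bases of the donor exon in lower case and the first 15 bases of the acceptor exon in capitals, read 5′ to 3′ on the RNA strand from the GENCODE M21 transcripts (GRCm38).
Ddx17 exons 9 to 10: attgggtacttaatgATTGATCCAGCTGAT
Ddx17 exons 3 to 4: gggaagacattggcgTATGAGGTTGATGAG
Ddx17 exons 2 to 4: gggaagacattggcgGTTTGGAGCAAGAGG
Ddx17 exons 2 to 3: atgctaactttccacGTTTGGAGCAAGAGG
Dhx9 exons 2 to 3: gttccagctgttgggGTGTGAAGAAGACAC
Hnrnpu exons 4 to 6: ggtctccctttcatgTCTGTCCATGTGAAT
Rbm39 exons 3 to 4: taatacttaaacaatACTTGCCTAACGATA
Qk exons 2 to 4: ttactggtacctgcgAAATTAGCAGAGTAC
Qk exons 3 to 4: ttactggtacctgcgTTTAATTTTGTTGGG
Qk exon 4: ttactggtacctgcgGAGGAGCAAAATAGA
Mbnl2 exon 2: tttgattccctcaagAATTTAAAGAGGACG
Lsm14a exons 3 to 8: ttgtgatgataatagTCTTCACTAGGTTCG
The lower-case part of the junction is the same in the Ddx17 circles of exons 3 to 4 and 2 to 4, which share a donor, and the part in capitals is the same in those of exons 2 to 4 and 2 to 3, which share an acceptor. The 3 Qk junctions share the donor of exon 4.

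Of the 173 annotated genes that the name rule takes in, 69 (39.9%) had at least 1 circle, against 21.4% of all 21924 protein-coding genes. Both counts take in every annotated gene, whether or not it is expressed in liver, so the difference is not read as a trait of these genes. The median was 2 circles per host in both sets, and 43 of the 69 hosts had 2 or more. Rbm39, a splicing factor related to U2AF, had 21 circles, and Lsm14a, a P-body protein that represses translation, had 11. Coverage differed between families: 10 of 16 Dhx helicases and 4 of 7 Cpsf cleavage factors had circles, against 2 of 11 Srsf proteins, 2 of 13 Lsm proteins and none of the 4 Elavl genes. No circle was assigned to Hnrnpl. The circle of Rbm4 is uncertain in its host, since another host was possible by position.

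Most members were rare. In 112 of the 228 (49.1%) the value was above 0 in a single library, compared with 44.2% of all circRNAs. A total of 50 (21.9%) were above 0 in at least 6 of 12 libraries and could be tested, compared with 23.5% of all circRNAs. The 20 members above 0 in all 12 libraries carried 57.6% of the members' signal. The 8 most abundant circles, from Hnrnpu, Ddx17 (2 circles), Hnrnpll, Srpk2, Qk, Rbm33 and Cpsf6, carried 51.1%. By family, Ddx circles held 27.7% of the members' signal, Hnrnp 22.4% and Rbm 22.0%, while Srsf held 0.105% and Celf 0.190%. Values at 0 also occurred in abundant circles: 7 members above 0 in 6 to 11 libraries had a median of at least 10 SRPBM where they were above 0. A 0 is therefore read as listed at 0, and circles with such an entry are given by library values or ranges.

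The members summed to 546.8 ± 65.0 SRPBM in PZH and 563.4 ± 86.3 in Control livers (SD, n = 6 each), with overlapping ranges of 441.6 to 626.4 and 409.8 to 636.0. As a share of all circRNA signal this was 1.51% ± 0.0975 in PZH and 1.60% ± 0.130 in Control. The number of members above 0 was 68 ± 11.4 in PZH and 65.3 ± 9.16 in Control. Among the families, the Srpk sum was 31.2 ± 6.32 in PZH and 23.2 ± 3.58 in Control, and the Prpf sum was 16.1 ± 6.06 and 25.9 ± 9.29, and both pairs of ranges overlapped. These sums were not tested. The library Control 2 had the lowest member sum, the fewest circRNAs above 0 in the table (3735 of up to 5510) and the lowest total signal (28922 SRPBM of up to 41080).

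**Figure D1:**
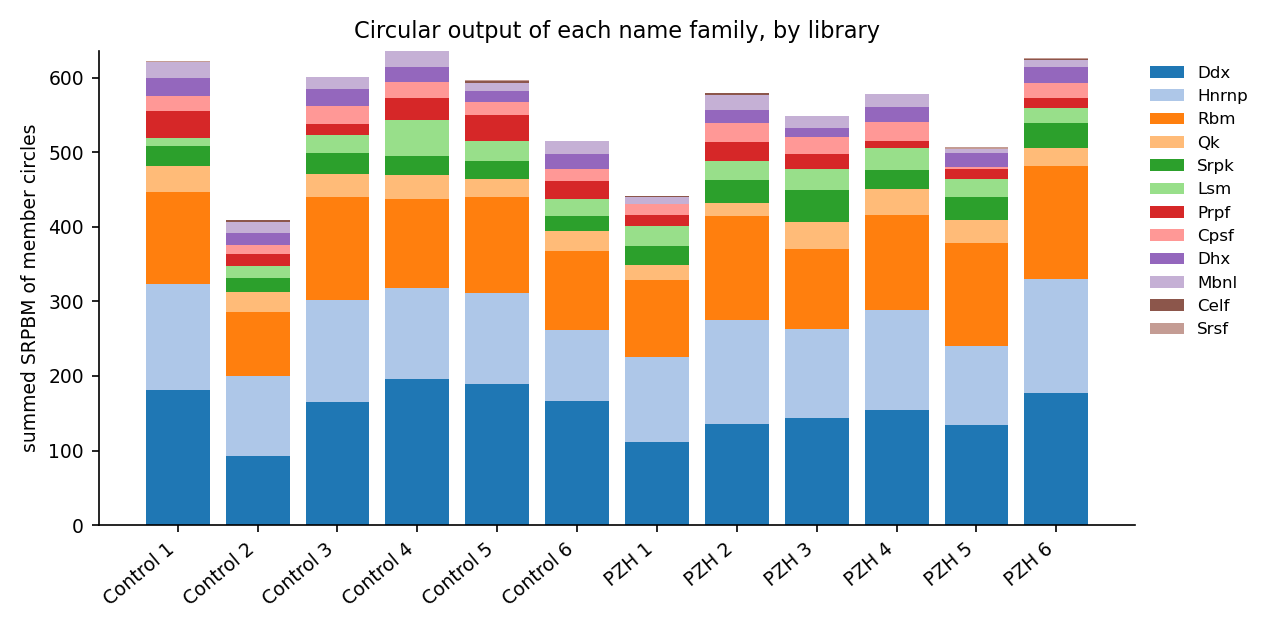
Stacked bars give the summed SRPBM of member circles in each of the 12 libraries (x axis), coloured by name family. Ddx, Hnrnp and Rbm circles make up most of every bar, and the totals run from 409.8 (Control 2) to 636.0 (Control 4) with no separation of the groups.

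The design asks which circles differ when PZH is added to CCl4. With limma on log2(SRPBM + 0.636), 0 of 50 tested members had a Benjamini-Hochberg adjusted p under 0.05, where 0.0517% of the 3870 circRNAs tested did (2 of 3870), and the smallest adjusted p among members above 0 in all 12 libraries was 0.365 (Ddx17 exons 3 to 4). At an unadjusted p under 0.05, 3 of 50 members (6.00%) were higher in PZH, against 4.55% of all tested, and 3 (6.00%) were lower, against 3.00%. An exact rank-sum test on the same 50 gave 4 higher and 2 lower at an unadjusted p under 0.05, and 0 after adjustment. The 3 higher circles came from Lsm14a, Rbm39 and Rbm27, and the 3 lower from Ddx17 (2 circles) and Dhx9. The count of lower circles rose to 6 without Control 2. Fold changes were positive for 27 and negative for 23 of the 50, with a median log2 fold change of 0.01, against 0.06 over all circRNAs tested. In 2 members (4.00%) the groups did not overlap, against 0.672% of all tested. One of them, Lsm14a exons 3 to 8, is also among the 3 higher circles, and it passed the filter only through the 6 PZH libraries, so it had to differ in order to be tested. Shares over 50 circles move by 2 points with each circle, so none of these shares is read as a result about the members. Fewer cells of a type and less circle per cell cannot be told apart in whole liver. Circles of the 2 stellate cell markers that had any, of 6, were higher in PZH (summed 8.93 to 20.1) than in Control (0 to 6.13), while Dcn, Lrat, Pdgfrb and Col1a1 had none. The 2 were Reln (mean 7.85 in PZH and 0.937 in Control, above 0 in 10 of 12 libraries) and Dlc1 (4.55 and 1.44, in 9 of 12). Any part of stellate cells in the differences below was not tested.

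**Figure D2:**
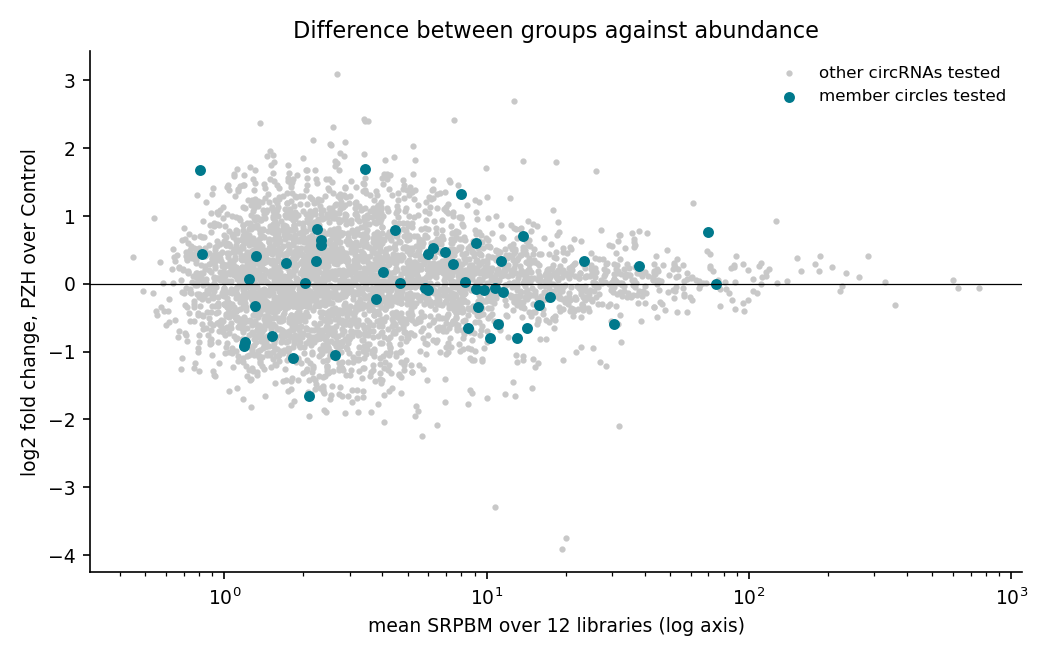
Each point is 1 of the 3870 circRNAs tested, with its mean SRPBM over 12 libraries on a log x axis and its log2 fold change (PZH over Control) on the y axis. The 50 tested members lie on both sides of 0, within the cloud of the other circRNAs.

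Ddx17, a DEAD-box helicase that works with Ddx5 as a cofactor of transcription and splicing, gave the strongest group of helicase circles. It had 7 circles, of which 4 were tested, with a summed level of 120.7 SRPBM on average over the 12 libraries. The 4 fall in separate regions of the gene: exons 9 to 10 at chr15:79536997-79537545 (173 bp of coding exon), and 3 circles within exons 2 to 4 that share their ends. All lie on the minus strand of GRCm38, on transcript Ddx17-201 with 13 exons.

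The exon 3 to 4 circle (chr15:79541034-79542586, 234 bp of exon) was 17.8, 28.2, 24.2, 26.5, 28.9 and 21.7 SRPBM in PZH livers 1 to 6. In Control livers 1 to 6 it was 34.1, 37.4, 35.2, 39.4, 37.7 and 36.6. The highest PZH value lay below the lowest Control value. The means were 24.6 ± 4.25 and 36.7 ± 1.90 (SD, n = 6 each). The log2 fold change was -0.59 (SE 0.16, 95% interval -0.93 to -0.25). The unadjusted p was 0.00170 and the adjusted p in limma 0.365, so it did not pass the threshold. The shorter neighbour of exons 2 to 3 (chr15:79542487-79543856) was 6.53 ± 1.87 in PZH and 10.5 ± 1.83 in Control (log2 fold change -0.65, SE 0.29, limma adjusted p 0.612). One PZH library, PZH 6 at 9.80, lay above 3 of the Control libraries. The circle of exons 2 to 4, which uses the outer ends of both, was 11.5 ± 5.26 and 11.6 ± 2.73 (log2 fold change -0.12, SE 0.32).

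The exon 9 to 10 circle was the second most abundant member. In PZH livers 1 to 6 it was 57.5, 64.1, 66.2, 65.9, 60.0 and 80.5 SRPBM, and in Control livers 86.0, 0, 79.3, 112.2, 82.8 and 79.5. Every Control library but Control 2 lay above 5 of the 6 PZH libraries, and Control 2 was listed at 0 although its exon 3 to 4 circle was at 37.4. That single entry sets the sign: the log2 fold change was 0.77 (limma adjusted p 0.867) with all libraries and -0.41 (adjusted p 0.398) without Control 2. With no filter on low circRNAs the 0.77 had a limma adjusted p of 0.000588. The library values and the estimate are the same in both fits. The unadjusted limma p went from 0.361 to 5.0e-07 because the variance that limma borrows from the other circRNAs differs. The 0.000588 is therefore not read as support for a rise in PZH.

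**Figure D3:**
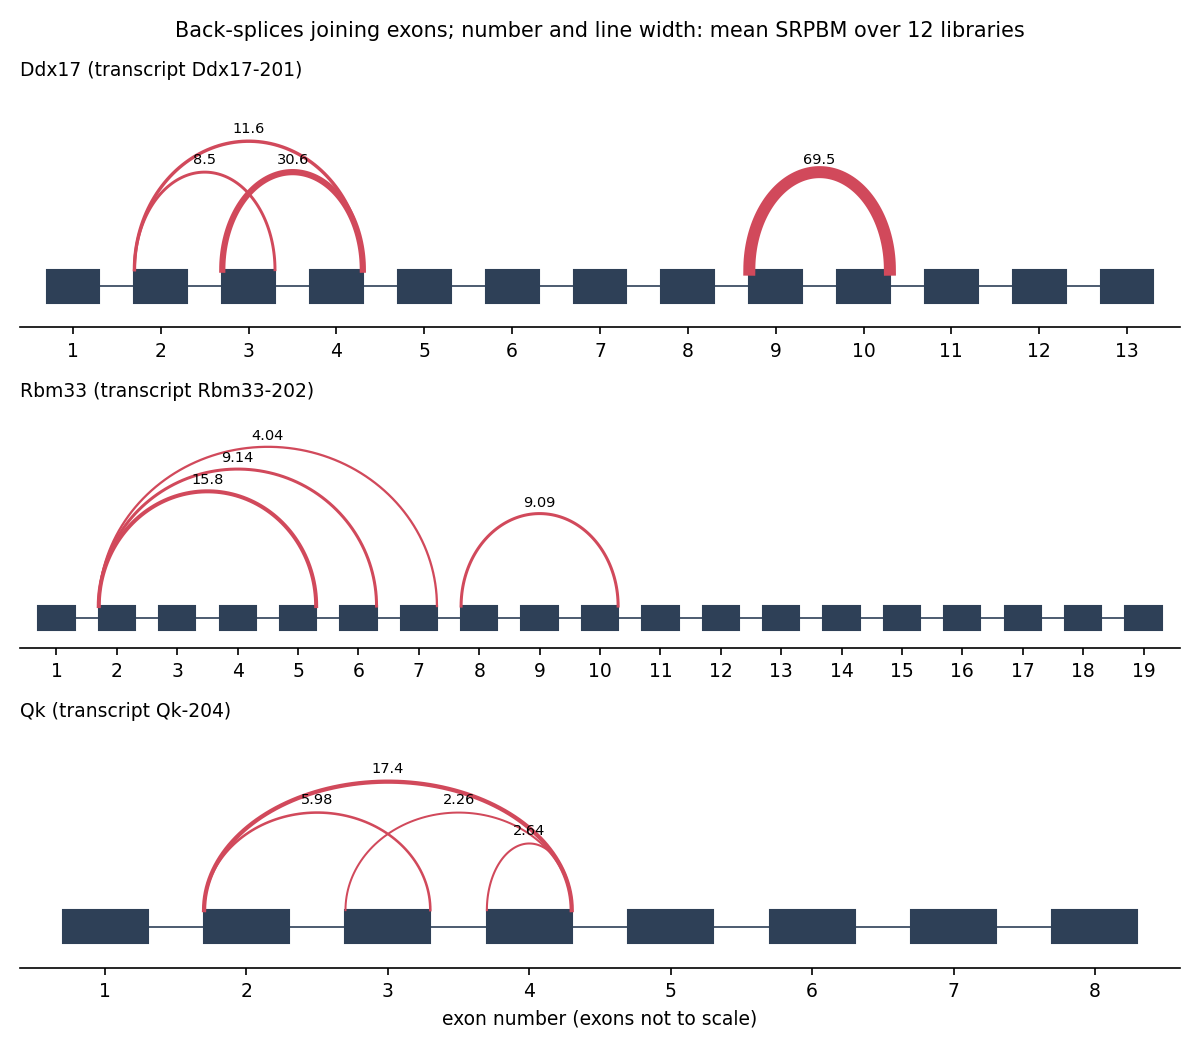
For Ddx17, Rbm33 and Qk, exons are drawn as equal boxes in transcript order (x axis, exon number, not to scale), and each arc joins the acceptor and donor exon of a tested circle, with its mean SRPBM over 12 libraries as label and line width. Circles of 1 host share ends, such as the donor of Qk exon 4 and the acceptor of Rbm33 exon 2.

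The other Ddx circles were near 10 SRPBM or lower. Ddx52, a helicase of ribosome assembly, made a circle of exons 5 to 6 at 9.37 ± 1.82 in PZH and 10.2 ± 2.61 in Control (log2 fold change -0.09, SE 0.27). Of the 9 tested Ddx circles, 4 had positive and 5 negative fold changes. Among the Dhx helicases, Dhx15, which takes the spliceosome apart after splicing, made 1 circle (exons 2 to 3, 630 bp). It was listed at 0 in PZH 1 and ran from 10.9 to 16.1 in the other PZH libraries and from 9.40 to 22.5 in Control. The Dhx9 circle of exons 2 to 3 (chr1:153482742-153483872, minus strand) was above 0 in 2 PZH libraries, at 2.17 and 3.73, and in all 6 Control libraries, at 1.58 to 5.99. Its log2 fold change was -1.66 (SE 0.67), with an unadjusted p of 0.0218 and a limma adjusted p of 0.567. The ranges overlapped, and the smallest entries of the libraries were 0.584 to 0.719.

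**Figure D4:**
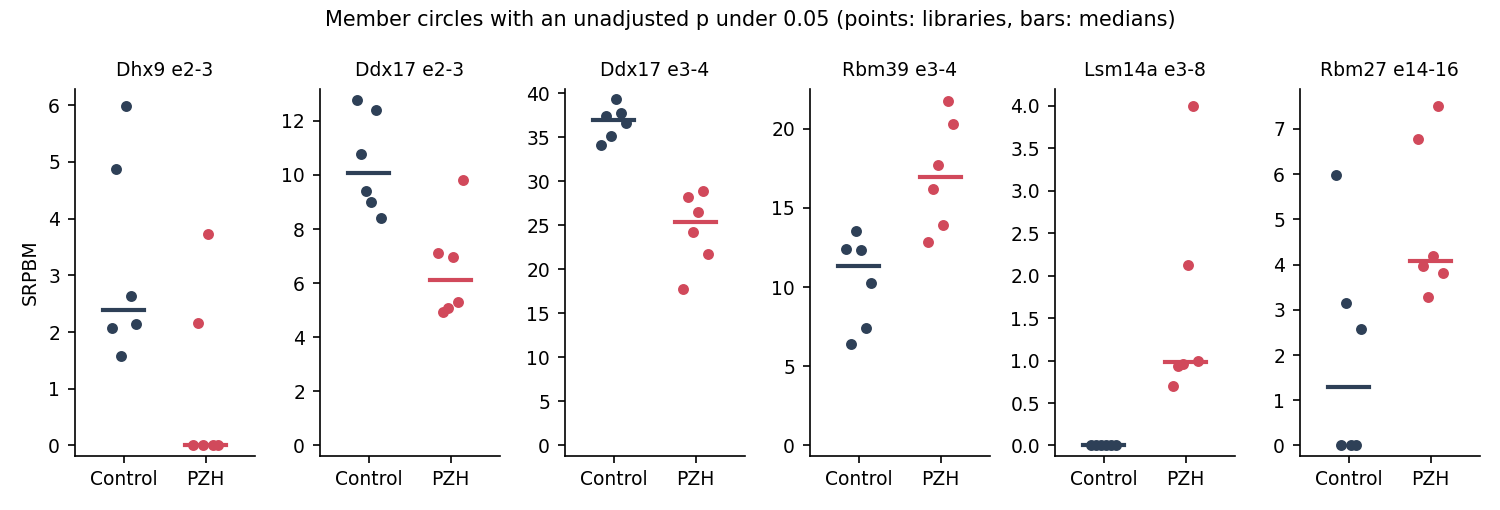
Points are the SRPBM of single libraries (y axis, own scale per panel) in Control and PZH for the 6 members with an unadjusted p under 0.05, and bars are medians. Ddx17 exons 3 to 4 and Lsm14a exons 3 to 8 are the only panels of the 6 without overlap, and 3 of the panels include libraries listed at 0.

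Hnrnpu, a nuclear RNA- and chromatin-binding protein, made the most abundant member circle, ranked 49 of 16445. It spans exons 4 to 6 of transcript Hnrnpu-208 (chr1:178323134-178325313, minus strand), with 30 coding bases and 197 bases of 3′ UTR, and carried 97.4% of the signal of its host. The lowest, median and highest values were 60.6, 71.3 and 101.6 SRPBM in PZH and 54.7, 72.8 and 88.7 in Control. The groups overlapped throughout, with means of 74.7 ± 14.8 and 74.5 ± 12.7 (log2 fold change 0.00, SE 0.15, 95% interval -0.30 to 0.31). Its sign is not defined at this size: it was -0.045 after scaling to the summed signal and -0.039 after median-of-ratios scaling. Hnrnpu-208 is annotated as subject to nonsense-mediated decay (NMD, the removal of mRNAs with an early stop codon). The donor end of this circle is the annotated 3′ end of that transcript, and 6 of the 8 Hnrnpu circles use it.

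Hnrnpll, a splicing regulator known from the skipping of CD45 exons in T cells, made nearly all of its circles as exons 2 to 7 (chr17:80044494-80053641, minus strand, 685 bp of exon). PZH values ran from 31.2 through a median of 40.4 to 55.6 SRPBM and Control values from 24.1 through 36.0 to 43.0. The log2 fold change was 0.26 (SE 0.18, limma adjusted p 0.736), with overlapping groups. Hnrnpm, a splicing regulator that binds GU-rich introns, had 6 rare circles. The most abundant joins exon 12 back to exon 9, with entries above 0 in 2 PZH libraries (up to 3.27) and 4 Control libraries (up to 5.30).

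Rbm39 made the Rbm circle with the smallest unadjusted p. It joins exon 4 back to exon 3 of Rbm39-222 (chr2:156177633-156178952, minus strand, 347 bp, of which 278 are 3′ UTR and 69 coding), another transcript annotated as subject to NMD. In PZH livers 1 to 6 it was 12.8, 16.2, 17.7, 13.9, 21.7 and 20.3 SRPBM, and in Control livers 12.4, 6.38, 13.6, 12.4, 7.42 and 10.3. Only PZH 1 and Control 3 crossed. The means were 17.1 ± 3.50 and 10.4 ± 2.93 (log2 fold change 0.71, SE 0.25, 95% interval 0.19 to 1.23). The unadjusted p was 0.00999 and the limma adjusted p 0.502. The next Rbm39 circle, exons 5 to 6 of a coding transcript, was 8.42 ± 4.29 in PZH and 10.0 ± 2.82 in Control (log2 fold change -0.34, SE 0.34).

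Rbm33, an RNA-binding protein with a role in mRNA export, had 10 circles, 4 of them tested. Exons 2 to 5 (chr5:28331111-28339308, plus strand) were 14.2 ± 4.95 SRPBM in PZH and 17.4 ± 4.32 in Control (log2 fold change -0.32, SE 0.26). Exons 8 to 10 (chr5:28358274-28368313) were 10.9 ± 2.25 and 7.23 ± 2.56 (log2 fold change 0.61, SE 0.30, unadjusted p 0.0572). The circle of exons 2 to 6 was 9.14 in both groups, with SDs of 4.20 and 2.43. Rbm27, linked to the decay of nuclear RNA, had 8 circles, 5 of them tested. Its circle of exons 14 to 16 was above 0 in all 6 PZH libraries (3.28 to 7.51) and in 3 Control libraries (2.57 to 5.98). The limma fit gave a log2 fold change of 1.69 (SE 0.67), an unadjusted p of 0.0195 and an adjusted p of 0.566. The more abundant Rbm27 circle of exons 11 to 14 was 8.12 ± 3.90 and 6.76 ± 3.31. Rbm27 exons 17 to 18 had 2 PZH libraries above 0 (up to 3.10) and 4 Control libraries (up to 3.30). Rbm41, a relative of a minor spliceosome protein, was listed at 0 in 1 PZH and 3 Control libraries, and elsewhere its circle of exons 5 to 6 ran from 6.88 to 17.4. Of the 17 tested Rbm circles, 11 had positive and 6 negative fold changes.

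Quaking, named above for its action on back-splicing, made 6 circles, 4 of them between exons 2 and 4. The most abundant, exons 2 to 4 (chr17:10238893-10282981, minus strand, 404 bp of exon in 44089 bp of genome), was 16.5 ± 5.69 SRPBM in PZH and 18.4 ± 3.93 in Control. Its log2 fold change was -0.19 (SE 0.25, 95% interval -0.72 to 0.33). Exons 2 to 3 were 6.11 ± 3.26 and 5.85 ± 1.86. The circles of exons 3 to 4 and of exon 4 alone use the same donor. The first was above 0 in 6 PZH and 5 Control libraries (log2 fold change 0.81, SE 0.59) and the second in 3 and 5 (-1.06, SE 0.77).

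Mbnl2 made a circle of exon 2 alone (chr14:120324794-120325412, plus strand, 619 bp) that holds the start codon of the gene and 97.1% of its circular signal. It was listed at 0 in PZH 5, ran from 7.20 to 14.1 in the other PZH libraries and from 8.67 to 14.4 in Control. Mbnl1 made a circle of exons 3 to 4, which was listed at 0 in PZH 6 and Control 5 and reached 6.56 and 7.10. Its log2 fold change was -0.22 (SE 0.70) and became 0.24 without PZH 6. Celf1 and Srsf11 circles were too rare to test: the most abundant Celf1 circle (exons 2 to 6) had entries in PZH 6 (1.33) and Control 2 (3.25), and that of Srsf11 (exons 3 to 6) in Control 1 (1.89). Srpk2, a kinase that phosphorylates SR proteins, made a circle of exons 2 to 6 (chr5:23540375-23565265, minus strand). It ran from 21.0 through a median of 25.8 to 35.8 SRPBM in PZH and from 15.5 through 22.0 to 24.2 in Control. The means were 26.4 ± 5.43 and 20.6 ± 3.39 (log2 fold change 0.34, SE 0.19, unadjusted p 0.0888, limma adjusted p 0.686).

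**Figure D5:**
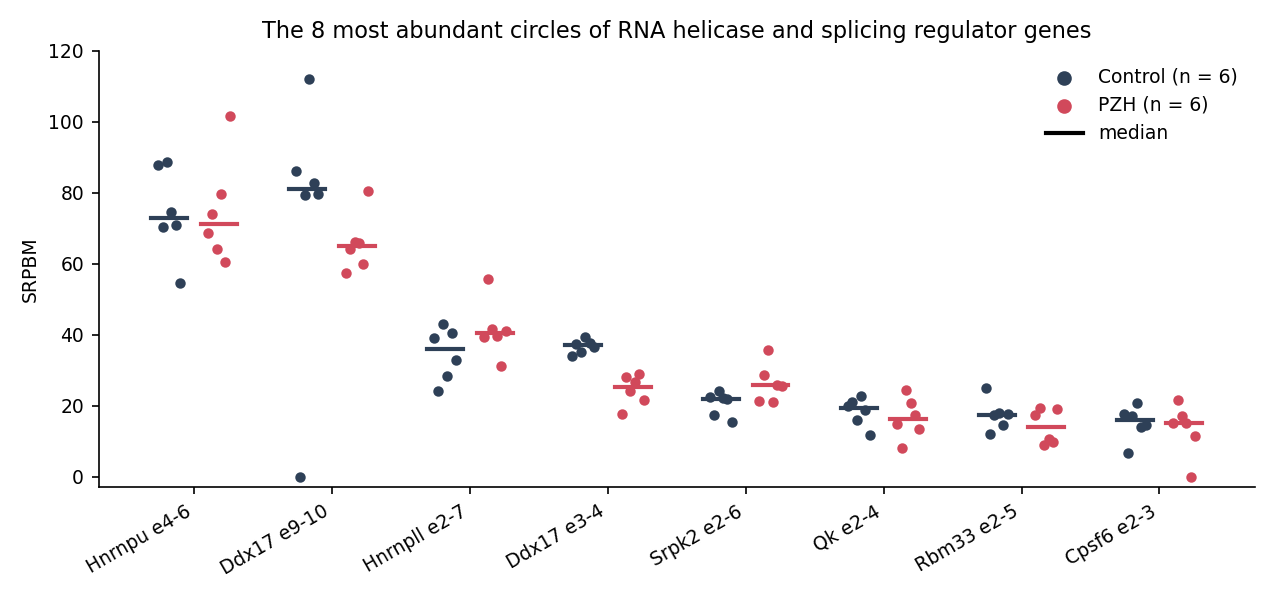
SRPBM of single libraries (y axis) for the 8 most abundant members, ordered by mean, with Control and PZH points side by side and the median as a bar. The groups of Ddx17 exons 3 to 4 are apart, and Ddx17 exons 9 to 10 and Cpsf6 exons 2 to 3 each have 1 library at 0.

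Among components of the spliceosome and of 3′ end processing, Prpf6, a scaffold of the tri-snRNP, made a circle of exons 7 to 8 (chr2:181631435-181632087, plus strand, 252 bp). It was 8.70 ± 2.50 SRPBM in PZH and 13.5 ± 4.53 in Control (log2 fold change -0.59, SE 0.29, unadjusted p 0.0525, limma adjusted p 0.654). A second Prpf6 circle, exons 3 to 6, was above 0 in 3 PZH libraries, at up to 2.44, and in 4 Control libraries, at up to 5.63. Cpsf6, which sets the choice of poly(A) site, made a circle of exons 2 to 3 (chr10:117366081-117367988, minus strand) that was listed at 0 in PZH 5 and ran from 11.4 to 21.6 in the other PZH libraries and from 6.60 to 20.8 in Control. Its log2 fold change of -0.65 (SE 0.61) became 0.13 without PZH 5. Lsm14a exon 9 was listed at 0 in Control 1 and ran from 8.11 to 12.6 in PZH and 9.95 to 24.3 in the other Control libraries. Its log2 fold change of 0.34 (SE 0.59) became -0.42 without Control 1.

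Lsm14a exons 3 to 8 (chr7:34353390-34371184, minus strand, 848 bp of exon) was 0.704, 0.930, 0.964, 2.12, 4.00 and 0.999 SRPBM in PZH livers 1 to 6 and listed at 0 in all 6 Control livers. Of these values, 4 were at or below 1.00 and close to the smallest entries of their libraries. It entered the tested set only through the PZH libraries, so that its groups had to differ, and its limma adjusted p of 0.363 is not read as support. It was the 1 member (0.439% of 228) above 0 in at least 5 libraries of 1 group and at most 1 of the other, against 0.426% of all 16445 circRNAs.

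Circles of a host were also summed, to ask whether its circular output differed as a whole. With limma, 0 of 28 tested member hosts had an adjusted p under 0.05, where 0% of 2203 hosts did. At an unadjusted p under 0.05, 2 of 28 (7.14%) passed, against 8.22% of all hosts, and both were lower in PZH. Prpf6 summed to 9.96 ± 3.19 in PZH and 17.9 ± 6.94 in Control (log2 fold change -0.78, SE 0.31, adjusted p 0.538). Hnrnpm ran from 0 to 6.19 in PZH and from 1.81 to 10.4 in Control (log2 fold change -1.80, SE 0.73, adjusted p 0.538). The next were Mbnl2 at -0.87 (SE 0.57) and, on the positive side, Srpk2 at 0.37 (SE 0.20), Rbm27 at 0.35 (SE 0.22) and Rbm39 at 0.26 (SE 0.19). The count of lower hosts was 4 without Control 2 and 1 without any one of PZH 1, PZH 4, PZH 6, Control 1 and Control 5.

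The choice between circles of 1 host was compared as the ratio of its most abundant circle to the rest. With limma, 0 of 11 member hosts passed at an adjusted p under 0.05, where 0% of 867 hosts did, and 1 of 11 (9.09%) passed at an unadjusted p under 0.05, against 7.04%. This was Rbm39, where the circle of exons 3 to 4 made up 51.4% ± 8.71 of the host's signal in PZH and 37.3% ± 9.37 in Control. The ranges of 41.5% to 60.9% and 26.4% to 52.2% overlapped. Its ratio differed by 0.81 on the log2 scale (SE 0.36, unadjusted p 0.0420, adjusted p 0.657), and the unadjusted p was above 0.05 without any one of PZH 2, PZH 3, PZH 5, Control 1, Control 2, Control 5 and Control 6. The next on the positive side were Ddx17 at 1.26 (SE 1.06), which holds the Control 2 entry at 0, and Rbm6, a splicing regulator, at 0.83 (SE 0.77). On the negative side were Rbm33 at -0.59 (SE 0.39), Cpsf6 at -1.16 (SE 0.85) and Hnrnpu at -0.43 (SE 0.65).

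In build, the members' median exon count was that of other circRNAs, and the median introns around them were shorter. Over the 219 members with both ends on boundaries the median was 3 exons and 442 bp of exon, against 3 exons and 417 bp over 15635 circRNAs of protein-coding genes with both ends on boundaries. The genomic span was 4744 bp against 6239 bp, the upstream intron 3701 bp against 5605 bp and the downstream intron 2614 bp against 4447 bp (medians). Circles of a single exon were 6.39% of members and 3.98% of all, and 27.4% began at exon 2, against 25.2%. All bases were coding in 84.9%, against 87.3%. These are descriptions, since circles of 1 host share introns and 146 of the 228 members share an end with another.

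The annotated transcripts that hold the circles were also counted. In 9 of the 219 members (4.11%) the only annotated transcripts with both ends were ones subject to NMD, against 0.716% of all, and these 9 carried 16.3% of the members' signal, against 0.595%. Most of that 16.3% came from the Hnrnpu and Rbm39 circles described above, with means of 74.6 and 13.8 SRPBM over the 12 libraries. For the Hnrnpu circle the donor end matched the annotated 3′ end of its transcript, which has no intron after it. Neither share is therefore read as a trait of the families. The NMD annotation was singled out after the values were seen. In the exons inside the circles, searched on the RNA strand, GAAGAA (a purine repeat of exonic splicing enhancers) was found in 55.7% of members and 49.0% of all. ACTAA, the core of the Quaking site, was found in 18.3% and 21.0%, and GCATG, the Rbfox site, in 32.0% and 34.9%. No motif contains another, and a match describes letters, not a bound site.

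Genes of RNA processing outside the name rule gave a wider view of the pathway. A list of 130 such genes had 315 circles from 86 hosts, of which 84 were tested. Fold changes were positive for 45 and negative for 39, with a median log2 fold change of 0.05. Over all 3870 circRNAs tested they were positive for 2100 and negative for 1770, with a median of 0.06. None of the 84 had a limma adjusted p under 0.05, where 0.0517% of all tested did. At an unadjusted limma p under 0.05, 2 of the 84 were higher in PZH and 0 lower, against 4.55% and 3.00% of all tested. Sf3a2, a U2 snRNP protein, made a circle of exons 7 to 8 that was above 0 in 5 PZH libraries (3.42 to 11.2) and in Control 6 alone of the Controls (4.67). The fit gave 2.42 on the log2 scale (SE 0.78, limma adjusted p 0.454). Scaf11, an SR-related protein, made a circle of exons 2 to 3 above 0 in 5 PZH libraries and 2 Control libraries (log2 fold change 1.51, SE 0.68, adjusted p 0.619). Both circles reached the 6 libraries that the filter asks for mostly through PZH libraries. A positive estimate was thus favoured in advance, and neither is read as support for a difference.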

How the data were processed

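CircRNAs were measured in liver RNA of 12 mice. The authors deposited a signal in SRPBM per circRNA and library, with circRNAs named by position only. Per the submitters' processing notes, Trim Galore and STAR were used with GRCm38 (mm10). For their versions, the circRNA caller and its filters, the SRPBM formula and the read depth, the entry is: not given in the sources used here. Libraries summed to 28922 to 41080 SRPBM.

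Host, strand and exon numbers were assigned here from GENCODE M21. For 1 member, of Rbm4, another host was possible. Values were tested on log2(SRPBM + 0.636), the pseudocount being the median of the libraries' smallest values (0.584 to 0.719), with limma 3.58.1 (variance trend, 2-sided) in R 4.3.3. CircRNAs or host sums above 0 in at least 6 of 12 libraries entered, with Benjamini-Hochberg adjustment over all of them and a threshold of 0.05. The fit was also run on simulated data with normal noise on the log2 scale. No entries were set to 0 there, so that run does not cover the entries at 0 in these data. Fold changes on this scale understate those of low circles. No count model was used, since the values are not counts. Tables were handled with Python 3.11.15, pandas 2.3.3, numpy 2.4.6 and scipy 1.17.1, and plots drawn with matplotlib 3.10.9.

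The members and lists were chosen with earlier results of these data known, so no set test was made. Named circles were the 8 most abundant, the 8 with the smallest p in each direction, the most abundant of each family and of the 5 hosts with most circles, the circles present in 1 group only by the rule given, the 3 hosts with the smallest p in each direction, and circles of factors known to act on back-splicing. Others named were chosen after their values were seen. Alternatives were other pseudocounts, filters, scalings, no trend, a replicate block, a rank-sum test, narrower and wider member rules, and the omission of single libraries. A fit with zeros as missing values was added after seeing the data. Flanking intron sequence was not used here.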

Additional observations from a re-analysis of the deposited data

Results flagged for a closer look

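In each group of 6 libraries, the highest or lowest value of a described circle was marked where its gap to the nearest other value exceeded Dixon's critical share of the group's range at the 95% level. This held in 7 of 70 groups. Dixon's rate of about 5% is for normal values and does not hold for groups with many zeros, so the count is not set against it. A circle above 0 in 1 library of a group is always marked, whatever its value. A pair were abundant circles with 1 library at 0: Ddx17 exons 9 to 10 in Control 2 was at 0 beside 79.3 to 112.2 SRPBM in the other Control libraries, and Dhx15 exons 2 to 3 in PZH 1 was at 0 beside 10.9 to 16.1. Qk exons 3 to 4 was 5.90 in PZH 2 and 2.04 to 2.83 in the other PZH libraries. Rbm27 exons 17 to 18 was 3.10 in PZH 3 and 0 to 0.831 in the others. The other 3 were rare circles above 0 in 1 library of the group: Celf1 exons 2 to 6 at 1.33 in PZH 6 and at 3.25 in Control 2, and Srsf11 exons 3 to 6 at 1.89 in Control 1.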

How the results depend on the processing

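No member passed an adjusted p of 0.05 under any setting run except that with no filter, where 1 did (Ddx17 exons 9 to 10). Lower members at an unadjusted p under 0.05 (3) numbered 6 with zeros as missing, and 2 to 6 when leaving out each library, and higher members (3) 2 to 4. Over all circRNAs, the 2 adjusted calls became 1 with pseudocount 2, 6 and 10 with filters of 3 and 12 libraries, 30 with no filter, 12 with zeros as missing, 0 with the exact rank-sum test, and 1 to 3 when leaving out each library. For host sums over all hosts, 0 calls became 1 with pseudocount 2, with the 12-library filter and with either scaling, 2 with the 3-library filter, and 0 to 3 when leaving out each library. Lower member hosts (2) numbered 1 with the 12-library filter and 1 to 4 when leaving out each library, and higher ones (0) 0 to 1. For ratios, higher members (1) and lower members (0) were each 0 to 1 when leaving out each library. The replicate numbers did not pair the samples: same-numbered libraries correlated at -0.122 to 0.0299. With the replicate block there was 1 adjusted call over all circRNAs, 2 over all host sums, and 0 higher member ratios. Signs reversed when leaving out single libraries for Cpsf6 exons 2 to 3 (log2 fold change -0.89 to 0.13, positive without PZH 5), Ddx17 exons 9 to 10 (-0.41 to 1.08, negative without Control 2), Lsm14a exon 9 (-0.42 to 0.64, negative without Control 1), Mbnl1 exons 3 to 4 (-0.73 to 0.24, positive without PZH 6) and Hnrnpu exons 4 to 6 (-0.092 to 0.057). With zeros as missing they reversed to 0.13 for Cpsf6, -0.41 for Ddx17, -0.42 for Lsm14a, 0.090 for Hnrnpm exons 9 to 12 and -0.15 for Rbm41 exons 5 to 6. The mean rank difference in the exact rank-sum test was -3.33 for Ddx17, -2.33 for Lsm14a and -0.67 for Hnrnpu, which also went to -0.045 and -0.039 with the summed and median-of-ratios scalings. The Ddx17 ratio went to -0.59 with the 12-library filter, where exons 3 to 4 become its main circle. With no filter the Ddx17 circle of exons 9 to 10 kept its value of 0.77 and passed, which is not read as support, as said above. Reversals with zeros as missing come from dropping entries at 0; the cause of those entries was not tested.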
